A study of Homo sapiens with 24 samples.

Results

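In U2OS, a human osteosarcoma cell line, 157 genes named LINC followed only by digits held at least 1000 exon counts summed over the 24 libraries of the series. They were chosen by this sum out of 2140 LINC genes in an exon table of 60308 genes. Of the LINC genes that were not chosen, 390 had 0 counts in every library and 1593 had counts below that minimum. The 157 members held 83.684% of all exon counts of LINC genes. The minimum fell in a dense range, with LINC01119 (1017 counts), LINC01667 (1007) and LINC01176 (1007) just inside it and LINC00689 (988), LINC02307 (966) and LINC01807 (966) just outside. Because the sum ran over all groups, 26 members would fall below it without the counts of their highest group, so counts over the members describe them and support nothing about LINC genes in general.

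LINC symbols are given to long intergenic non-coding RNAs, which are transcribed like mRNAs, often spliced and polyadenylated, but have no recognised protein product. Many stay close to their site of transcription, others reach the cytoplasm, and for most of them no function is established. Stress granules and P-bodies are RNA-protein condensates of the cytoplasm that hold untranslated mRNAs and also non-coding RNAs. DDX3 is an RNA helicase found in stress granules, and RK-33 is a small molecule that blocks its ATPase and helicase activity.

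The study asked how blocking DDX3 changes the RNA of these condensates. Cells received 0.12% DMSO for 2 h (Ctrl), 500 µM sodium arsenite for 60 min (NaAsO2), 6 µM RK-33 with a pre-treatment of 1 h (RK-33), or RK-33 and NaAsO2 together at those doses (Combo). Nuclei were spun out of each lysate, and a faster spin split the cytoplasm into a soluble and an insoluble fraction, the latter enriched for RNP granules. Each of the 8 groups had 3 libraries, made after rRNA depletion. All cells came from 1 line, which limits the groups as a model, and the whole experiment was repeated 3 times according to the methods, but no source says whether each repeat had its own culture, so the p-values may measure only the spread between these libraries. As each library pools the RNA of many cells, fewer cells that carry an RNA and less of it per cell cannot be told apart.

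Library totals (exons and introns together) ran from 10968059 to 19799530, the median being 14567729. VIM, COL1A1, SPARC, RUNX2 and FN1, which mark mesenchymal cells and the bone lineage, stood at 1 CPM, the exon count relative to the TMM-scaled library size, or more in every library, while COL1A2 reached at most 1.842 CPM and TWIST1 at most 0.2318 CPM. Of markers of other cell types, KRT8 (144.9 to 362.2 CPM) and CDH1 (3.577 to 7.102 CPM) were also present in every library, as was the neural marker RBFOX3 (1.403 to 4.058 CPM). EPCAM reached 7.914, PTPRC 2.093, SOX10 1.939 and GFAP 1.319 CPM, KRT19 reached 0.9693 CPM, and CD3E, HBB, ALB and APOA1 reached at most 0.327 CPM. Replicate 3 of the NaAsO2 insoluble group stood apart: RN7SL1, the RNA of the signal recognition particle, took 5.79% of its exon counts, against 0.426% to 1.23% in the other insoluble libraries and 7.51% to 15.5% in the soluble libraries. RK-33 soluble replicate 3 (RN7SL1 at 15.5%, against 8.42% and 9.13%) and Combo insoluble replicate 3 (1.23%, against 0.746% and 0.521%) also differed more from their replicates than those did from each other. Counts of members that NaAsO2 insoluble replicate 3 moved by over 1.5 times are given with and without it.

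The members were mostly spliced. Their merged exons spanned 760 to 33198 bases with a median of 4510, close to the median of 4738.5 over all tested genes. The median number of merged exons was 7, and 19 members had 1 merged exon and so no intron. Exons of 70 members overlapped exons of another annotated gene, and the bodies of 118 overlapped another gene's body. Reads over exons of several genes were left out of the counts. The counting used no strand, so reads over a member's exon that lay in an intron of an antisense neighbour could not be assigned to either gene with certainty. The members' median GC content was 44.69%, against 47.63% over the 17666 genes tested.

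Levels differed widely. Averaged over all libraries, exon counts of members were 3.674 to 236.4 CPM, and per kilobase of merged exon 0.2018 to 53.46 CPM with a median of 1.922. LINC00452 (chr13:113888306-113923512, plus strand, GRCh38 as in all coordinates here) was the highest per kilobase, at 53.46 CPM per kb, and LINC00565 (chr13:113923052-113928991, minus strand) followed at 39.78. They lie on opposite strands and share 461 bases of exon, and reads there were left out for both. LINC00452 stood at 179, 171 and 182 CPM in the Ctrl soluble and 183, 170.3 and 198 CPM in the Ctrl insoluble libraries, and these groups overlapped. The next were LINC00973 at 36.57, LINC01711 at 24.56, LINC01638 at 23.15 and LINC00165 at 21.74 CPM per kb, all of them short transcripts of 1 to 4 merged exons. Before length was taken into account, LINC00662, a gene studied in several cancers, was the most abundant at 236.4 CPM. Its merged exons, which join all annotated exons of the gene, add up to 33198 bases. Its libraries held 194, 159.7 and 208 CPM in the Ctrl soluble group and 390.3, 363 and 394 CPM in the Ctrl insoluble group.

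Intron reads made up much of the signal of these genes. Of the 138 members with an intron entry, 18 were listed at 0 intron counts in every library, and 15 of those 18 lie wholly inside the span of another gene. Among all genes with an intron entry and at least 1000 exon counts, 1127 of 12370 were listed in the same way, so a 0 there does not measure the absence of intron RNA. In the other 120 members the intron share, intron counts as a percentage of exon plus intron counts over all libraries, had a median of 69.343%, and 78 members held more intron than exon counts. At the top were LINC02163 (98.684%), LINC02476 (98.04%), LINC01505 (96.31%) and LINC02315 (96.3%), whose introns add up to 193481 to 730767 bases. At the bottom were LINC02614 (0.03367%), LINC00667 (1.989%), LINC02916 (2.161%) and LINC02714 (2.365%). Per kilobase the order was different: exons were denser than introns in all but 2 members, with a median ratio of 4.826.

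Summed over the members, the intron share was higher in the insoluble than in the soluble fraction in each treatment. In Ctrl it was 63.35%, 59.27% and 63.86% in the soluble libraries and 80.14%, 79.56% and 78.76% in the insoluble libraries. In NaAsO2 the values were 57.85%, 65.33% and 57.05% against 72.78%, 66.35% and 64.58%, and here the fractions overlapped. RK-33 gave 62.88%, 58.41% and 52.89% against 78.12%, 78.43% and 77.16%, with no overlap. For Combo the shares were 59.69%, 60.76% and 70.55% against 75.73%, 76.09% and 69.62%, and replicate 3 had the highest soluble and the lowest insoluble value. Over all genes a library held 13.28% to 37.46% intron counts, so the members had a higher intron share than the whole library in all 24 libraries. The difference between fractions was not particular to the members. Over all genes Ctrl had 22.31%, 17.69% and 21.8% soluble and 36.26%, 33.29% and 30.54% insoluble. RK-33 had 22.56%, 17.8% and 13.28% soluble and 35.09%, 37.46% and 34.78% insoluble, while in NaAsO2 and Combo the fractions overlapped.

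**Figure D1:**
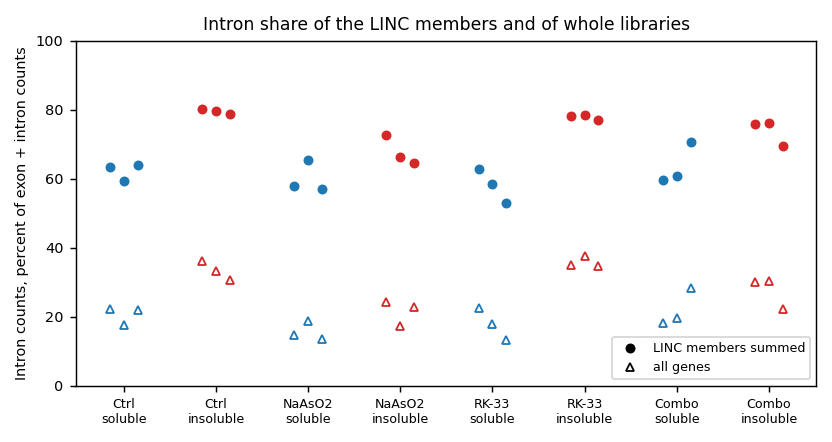
Intron counts as a percentage of exon plus intron counts (vertical axis) in each of the 24 libraries, by treatment and fraction (horizontal axis). Filled circles are the 157 LINC members summed and open triangles are all genes, in blue for soluble and red for insoluble libraries. The members' shares lie between 52.89% and 80.14%, above the whole-library shares of 13.28% to 37.46%.

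Fractions were compared gene by gene with edgeR's quasi-likelihood test over all genes that averaged 1 CPM or more, which included all 157 members. A gene was called where the Benjamini-Hochberg adjusted p was under 0.05 and the absolute log2 fold change was at least 1. In Ctrl, 22 members rose and 13 fell from soluble to insoluble, 22.3% of members against 22.5% of all tested genes. In RK-33 there were 38 higher and 15 lower, 33.8% against a background of 30.7%. In Combo 14 were higher and 14 lower, 17.8% against 23.1%, and in NaAsO2 12 were higher and 23 lower, 22.3% against 30.6%. Shares of members called therefore lay near or below those of all genes, with RK-33 slightly above. The RK-33 share was 30.6% without RK-33 soluble replicate 3, with no share of all genes given beside it. Without NaAsO2 insoluble replicate 3 the NaAsO2 counts were 17 higher and 18 lower, and with RLE size factors 18 and 18, so neither setting kept the excess of lower members. Median log2 fold changes of members were 0.13 in Ctrl, -0.10 in NaAsO2, 0.25 in RK-33 and 0.09 in Combo, beside -0.03, 0.03, -0.01 and 0.00 over all tested genes.

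**Figure D2:**
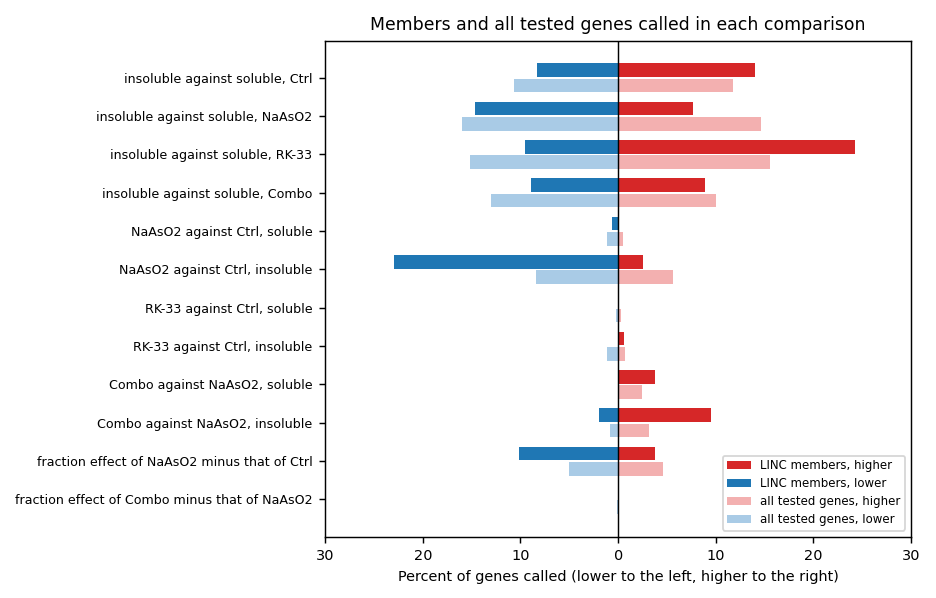
Percent of genes called (horizontal axis, lower to the left and higher to the right) in each of the 12 comparisons of exon counts (vertical axis). Dark bars are the 157 members and pale bars all tested genes, in red for higher and blue for lower. The longest member bar to the right is insoluble against soluble in RK-33, with 38 members, and the longest to the left is NaAsO2 against Ctrl in the insoluble fraction, with 36.

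Over the 4 treatments, 45 members were called higher in the insoluble fraction in at least 1, 33 were called lower in at least 1, 79 in none, and 0 in opposite directions. The same call was made in all 4 treatments for 9 members. These counts over treatments were not made for all tested genes, so they describe the members only. In single treatments 22.5% to 30.7% of all tested genes were called. LINC01297, LINC00342 and LINC02912 were higher in the insoluble fraction each time. LINC01460, LINC01303, LINC01970, LINC00460 and LINC01119 were lower each time, as was LINC02802.

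LINC01297 (chr14:19344578-19384587, minus strand) held 13.3, 9.39 and 13.7 CPM in the Ctrl soluble and 52.3, 49.1 and 47 CPM in the Ctrl insoluble libraries. In RK-33 the values were 16.9, 10.1 and 8.08 CPM against 59.4, 74 and 55.4 CPM. All 3 insoluble libraries exceeded all 3 soluble libraries in each treatment. The log2 fold change was 2.03 ± 0.27 (SE) in Ctrl (adjusted p = 2.22e-06), 2.43 ± 0.27 in RK-33 (adjusted p = 1.12e-07), 1.5 ± 0.28 in NaAsO2 (adjusted p = 7.49e-05) and 1.85 ± 0.26 in Combo (adjusted p = 4.33e-06). LINC00342 (chr2:95807052-95835003, minus strand) behaved alike, with 26.8, 15.6 and 21.6 CPM soluble and 57, 55.3 and 56 CPM insoluble in Ctrl. Its fold changes were 1.4 in Ctrl, 1.38 in NaAsO2, 2.13 in RK-33 and 1.44 in Combo. LINC02912 lies inside PVT1, an abundant lncRNA gene on the opposite strand, and its reads could not be told apart from those of PVT1. It rose from 5.78, 4.61 and 3.59 CPM to 23.2, 31.1 and 24.4 CPM in RK-33, by 2.49 ± 0.27 on the log2 scale (adjusted p = 8.2e-08).

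On the other side, LINC01460 (chr2:27705786-27716738, minus strand) held 8.01, 8.47 and 5.99 CPM in the Ctrl soluble and 1.84, 2.12 and 1.83 CPM in the Ctrl insoluble libraries. Its fractions did not overlap in any treatment. The log2 fold change was -1.95 ± 0.21 in Ctrl (adjusted p = 1.38e-07) and -2.63 ± 0.21 in RK-33 (adjusted p = 1.09e-09). LINC01303 (chr14:61556273-61570653, minus strand) fell from 16.9, 18.6 and 17.1 CPM to 4.0, 6.85 and 4.15 CPM in Ctrl (-1.81 ± 0.25, adjusted p = 3.47e-06). LINC01970 (chr17:82290046-82292814, minus strand) fell from 10.1, 13.3 and 12.8 CPM to 1.8, 2.23 and 2.48 CPM in Combo (-2.47 ± 0.35, adjusted p = 3.98e-06). Both had their highest insoluble library below their lowest soluble library in those treatments. LINC00460 stood at 9.03, 9.11 and 8.99 CPM soluble and 4.0, 4.13 and 3.28 CPM insoluble in Ctrl (-1.25 ± 0.24, adjusted p = 0.000157). Of short transcripts, LINC00973 (chr3:98981058-98983096, plus strand) was called lower in NaAsO2, RK-33 and Combo. It held 72.9, 68.2 and 63.2 CPM in the RK-33 soluble and 31.3, 24.6 and 30.4 CPM in the RK-33 insoluble libraries, which did not overlap (-1.24 ± 0.16, adjusted p = 8.99e-07).

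Several members with introns were higher in the Ctrl insoluble fraction. LINC01697 (chr21:28048404-28137611, plus strand) rose from 7.91, 5.52 and 6.96 CPM to 30.5, 27.3 and 23.7 CPM, by 2.0 ± 0.33 (adjusted p = 3.33e-05). LINC00630 (chrX:102769158-102885406, plus strand) rose from 12.3, 11.1 and 13.4 CPM to 30.2, 30.2 and 28.2 CPM, by 1.27 ± 0.14 (adjusted p = 2.44e-07). LINC01606 rose from 24.8, 22.7 and 21.6 CPM to 60, 52.5 and 48.9 CPM, by 1.22 ± 0.14 (adjusted p = 4.67e-07). In each, the lowest insoluble library lay above the highest soluble library. The call of LINC01606 in Combo (1.0) lay at the fold limit and was lost in 17 of its alternatives. Calls also went to other members, with and without introns. LINC01128 (chr1:825138-859446, plus strand) rose from 18.9, 16.8 and 20.2 CPM to 44.5, 43.7 and 41.4 CPM in NaAsO2, by 1.21 ± 0.10 (adjusted p = 1.43e-09), and in RK-33 by 1.12 ± 0.10 (adjusted p = 7.64e-09). The RK-33 call was lost with exon plus intron counts, at 0.95 (adjusted p = 4.41e-07), and with no filter on low counts. LINC00165, of 1 exon, rose from 10.6, 10.3 and 11.7 CPM to 23.6, 22.5 and 57.5 CPM in NaAsO2, by 1.65 ± 0.27 (adjusted p = 1.35e-05). The insoluble libraries of both lay above the soluble libraries, and the highest value of LINC00165 was in the library that stood apart. LINC02434 fell from 12, 11.2 and 8.01 CPM to 4.28, 3.84 and 3.17 CPM in Combo, a log2 fold change of -1.47 ± 0.20 (adjusted p = 2.84e-06). LINC01278 fell from 25.4, 30.1 and 27.3 CPM to 12.9, 8.49 and 8.42 CPM in NaAsO2, a log2 fold change of -1.46 ± 0.19 (adjusted p = 6.07e-07), but its change was 0.24 with exon plus intron counts (adjusted p = 0.39). Further calls in Ctrl were LINC00221 (-1.44), LINC00888 (-1.44) and LINC00552 (-1.46), all lower (LINC00221 at -0.69 with exon plus intron counts, and then not called), and LINC01087 (2.21), which was higher.

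Among the 20 members with an intron share of at least 90%, 3 were called higher and 0 lower in the Ctrl insoluble fraction, where 30.8% of all tested genes of that share were higher and 1.52% lower. The 58 with a share of 50% to under 90% had 12 higher and 2 lower, beside 11.2% and 3.7% of all such genes. Among the 42 with a share under 50%, 2 were higher and 9 lower, beside 8.62% and 11.8% of all tested genes of that share.

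Intron counts of 117 members could be tested. In the insoluble fraction of Ctrl 25 members had higher and 16 lower intron counts, 35.0% of members against a background of 18.9%. The counts were 32 and 18 in RK-33 (42.7% against 25.9%), 11 and 8 in Combo (16.2% against 12.7%), and 7 and 10 in NaAsO2 (14.5% against 11.1%). Their direction depended on the scaling. RLE size factors gave nearly the same splits, 28 and 15 in Ctrl, 34 and 17 in RK-33, 11 and 8 in Combo, and 7 and 10 in NaAsO2. With library size alone the splits became 4 and 19 in Ctrl, 13 and 23 in RK-33, 3 and 11 in Combo, and 5 and 14 in NaAsO2, and the median intron fold change of all genes moved from -0.11 to -0.45 in Ctrl. Exon and intron changes had the same sign in 98 of 117 members in Ctrl, 93 in RK-33, 80 in Combo and 77 in NaAsO2. In Ctrl, LINC01943 (chr2:87439523-87459044, minus strand) was the 1 member called in opposite directions, with exons higher (1.63) and introns lower (-1.29) in the insoluble fraction. Its exons overlap those of CYTOR on the opposite strand, and reads over the shared bases were left out.

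The response of the insoluble fraction to NaAsO2 was mostly downward. Against Ctrl, 4 members were higher and 36 lower in NaAsO2, 25.5% of members against 14% of all tested genes. The members' median log2 fold change was -0.45, and that of all tested genes was -0.02. Without NaAsO2 insoluble replicate 3 the counts were 1 higher and 17 lower, 11.5% of members, and 8.58% of all genes were then called. In a fit of the compared groups only, 1 was higher and 13 lower, with no share of all genes given beside it.

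LINC01186 (chrX:46256759-46327680, minus strand) was among the clearest. It held 15.9, 13.3 and 13.5 CPM in the Ctrl insoluble and 5.83, 5.34 and 5.46 CPM in the NaAsO2 insoluble libraries. The NaAsO2 values were close together and all below Ctrl (-1.36 ± 0.13, adjusted p = 1.34e-07). LINC00973 went from 29.9, 32.2 and 22 CPM to 11, 12.3 and 6.64 CPM (-1.46 ± 0.17, adjusted p = 1.24e-06). LINC01638 (chr22:27221349-27225134, minus strand) went from 29.3, 27.2 and 27.5 CPM to 13.5, 12.2 and 10.1 CPM (-1.22 ± 0.15, adjusted p = 2.64e-06). In LINC02832 (chr2:219685381-219737937, plus strand) the levels were 14.8, 14.4 and 12.6 CPM and 6.26, 4.56 and 6.29 CPM (-1.3 ± 0.17, adjusted p = 5.59e-06). None of these overlapped between groups, and all 4 stayed called without the library that stood apart. LINC00662, the most abundant member, fell from 390.3, 363 and 394 CPM to 244, 200.1 and 107 CPM (-1.06 ± 0.23, adjusted p = 0.00122), with its lowest value in that library.

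The 4 members that rose behaved differently from one another. LINC01521 (chr22:31346777-31348719, plus strand), a transcript of 1 exon, went from 2.81, 3.23 and 4.15 CPM to 6.69, 7.72 and 14.8 CPM (1.48 ± 0.32, adjusted p = 0.000898), and without replicate 3 the change was 1.15 (adjusted p = 0.0018). LINC02916 went from 4.22, 3.73 and 5.31 CPM to 3.84, 5.62 and 29.4 CPM (1.49 ± 0.49, adjusted p = 0.0171). Its call rested on the single library at 29.4 CPM, since without it the change was 0.17 (adjusted p = 0.655). For LINC02714 the values were 2.6, 2.42 and 2.12 CPM and 2.13, 3.23 and 10.6 CPM, and for LINC00552 1.3, 2.02 and 1.93 CPM and 2.7, 3.23 and 5.22 CPM. The changes were 1.08 ± 0.41 (adjusted p = 0.0368) and 1.04 ± 0.26 (adjusted p = 0.00302). The groups overlapped in LINC02916 and LINC02714 but not in LINC01521 and LINC00552. Without that library LINC02714 changed by 0.25 (adjusted p = 0.533) and LINC00552 by 0.82 (adjusted p = 0.0156), so that neither was called.

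In the soluble fraction few members were called with NaAsO2: 0 were higher and 1 was lower, 0.637% against 1.68% of all tested genes. An adjusted p under 0.05 was reached by 16 members, of which 1 passed the fold limit. The lower member was LINC01711 (chr20:58634772-58635738, plus strand), a transcript of 1 exon. It held 23.5, 21.4 and 28.2 CPM in Ctrl and 10.8, 13.4 and 11.7 CPM in NaAsO2, with no overlap (-1.02 ± 0.25, adjusted p = 0.00982). Its change lay near the fold limit and was -0.91 to -1.21 over the alternatives.

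A test of the difference between fraction effects asked whether NaAsO2 moved members between the fractions. The fraction effect is the log2 ratio of insoluble to soluble, and its change is the value in NaAsO2 minus the value in Ctrl. The change was called up for 6 members and down for 16, 14% of members against 9.56% of all tested genes. Without NaAsO2 insoluble replicate 3 the counts were 4 up and 5 down, 5.73% of members against 7.6% of all genes, so the share above background rested on that library. With library size alone the split was 7 up and 4 down, with no share of all genes given beside it.

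**Figure D3:**
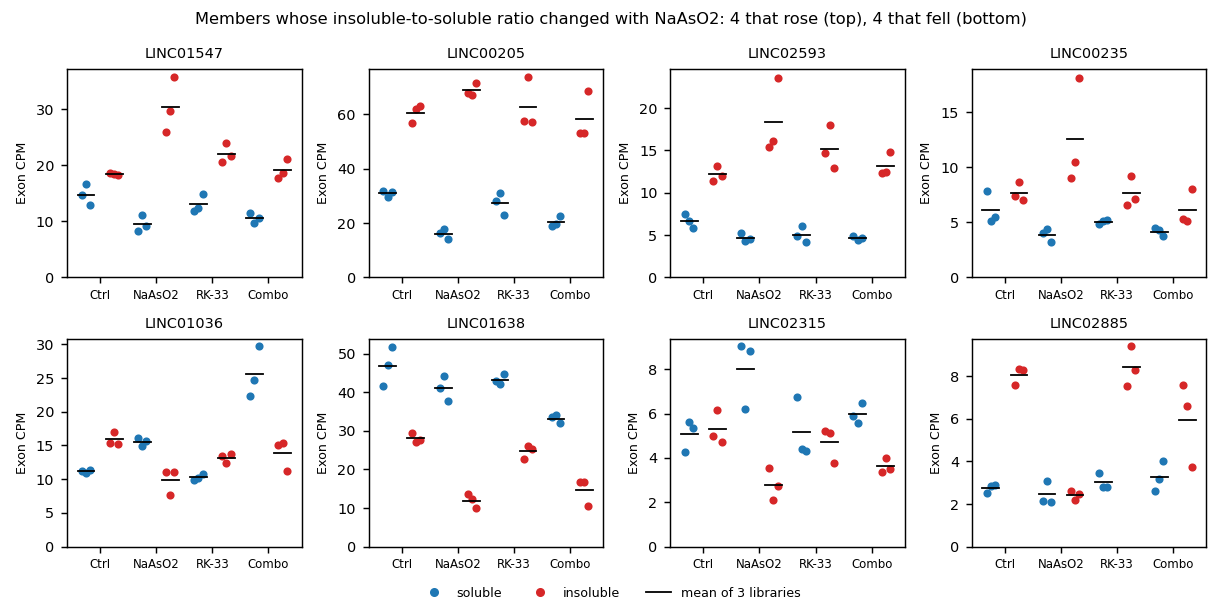
Exon CPM after TMM scaling (vertical axis, from 0) in each library by treatment (horizontal axis), for 4 members whose insoluble-to-soluble ratio rose with NaAsO2 (top row) and 4 whose ratio fell (bottom row). Points are libraries, blue for soluble and red for insoluble, and lines are means of 3. In LINC00205 the NaAsO2 soluble libraries lie between 14.3 and 17.6 CPM and the insoluble between 67.0 and 71.7 CPM.

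Members whose ratio rose had more GC in their exons than those whose ratio fell. Windows of the middle 100 bases of the longest exon are shown. They come from LINC00235, the named riser with the most GC, and from the named fallers with the least GC. Because they were picked by GC, their contrast was set by the choice and only illustrates the sequences. Coordinates are in GRCh38 (hg38), and the bases run 5′ to 3′ of the transcript, with G and C in capitals. The window of LINC00235 (chr16:526231-526330, minus strand) had 67% GC. The windows of LINC01036 (chr1:187485786-187485885, plus strand) and LINC02315 (chr14:40975559-40975658, plus strand) had 26% and 38% GC.
LINC00235: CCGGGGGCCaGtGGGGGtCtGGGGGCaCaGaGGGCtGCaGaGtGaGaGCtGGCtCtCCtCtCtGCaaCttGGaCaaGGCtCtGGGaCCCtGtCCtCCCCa
LINC01036: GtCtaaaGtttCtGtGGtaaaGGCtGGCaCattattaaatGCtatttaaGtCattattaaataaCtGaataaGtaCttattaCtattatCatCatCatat
LINC02315: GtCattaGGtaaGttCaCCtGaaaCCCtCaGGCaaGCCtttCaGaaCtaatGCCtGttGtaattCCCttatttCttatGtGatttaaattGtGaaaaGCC

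LINC00205 (chr21:45288035-45297806, plus strand) held 31.7, 29.6 and 31.6 CPM in the Ctrl soluble and 56.7, 61.9 and 63.1 CPM in the Ctrl insoluble libraries. With NaAsO2 the values were 16.5, 17.6 and 14.3 CPM soluble and 67.9, 67 and 71.7 CPM insoluble. The soluble level was lower than in Ctrl in all 3 libraries, while the insoluble level was higher in each. The fraction effect rose from 0.97 to 2.09, a change of 1.12 ± 0.19 (adjusted p = 0.000242). Its exons hold a match to the Pumilio element TGTANATA, the motif bound by PUM proteins, with the match in capitals at chr21:45296842-45296869, plus strand.
LINC00205: ggtctcttctTGTAAATAaagttttatt

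Of the members, 38.2% hold this element on the transcript strand of their exons, beside 37.1% of all tested genes, so the shares lay close together. LINC01547 (chr21:44932814-44939941, minus strand) lies on the same chromosome and had Ctrl values of 14.6, 16.6 and 12.8 CPM soluble and 18.6, 18.3 and 18.2 CPM insoluble. In NaAsO2 it held 8.24, 11.2 and 9.18 CPM and 26, 29.6 and 35.7 CPM. The soluble level was lower and the insoluble level higher than in Ctrl in all libraries, and the fractions did not overlap in either treatment. The change was 1.34 ± 0.21 (adjusted p = 9.41e-05).

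LINC02593 (chr1:916865-921016, minus strand) and LINC00235 (chr16:525155-527407, minus strand) have 1 exon each. LINC02593 stood at 5.19, 4.29 and 4.5 CPM in the NaAsO2 soluble and 15.4, 16.1 and 23.6 CPM in the NaAsO2 insoluble libraries, against 7.45, 6.72 and 5.78 CPM and 11.4, 13.2 and 12 CPM in Ctrl. LINC00235 stood at 4.06, 4.39 and 3.21 CPM and 9.04, 10.5 and 18.1 CPM in NaAsO2, against 7.82, 5.15 and 5.46 CPM and 7.36, 8.67 and 7.05 CPM in Ctrl. In LINC00235 the Ctrl fractions overlapped and the NaAsO2 fractions did not, and the highest value came from replicate 3. The changes were 1.1 ± 0.26 for LINC02593 (adjusted p = 0.00402) and 1.35 ± 0.35 for LINC00235 (adjusted p = 0.00702). Without replicate 3 they were 0.98 (adjusted p = 0.00262), just under the fold limit, and 1.09 (adjusted p = 0.00592).

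LINC02315 (chr14:40954693-41149309, plus strand) held 4.28, 5.61 and 5.35 CPM soluble and 4.98, 6.15 and 4.73 CPM insoluble in Ctrl. In NaAsO2 it held 9.03, 6.18 and 8.81 CPM soluble and 3.56, 2.11 and 2.73 CPM insoluble. The fractions overlapped in Ctrl, and in NaAsO2 all insoluble libraries lay below the soluble ones. The change was -1.57 ± 0.32 (adjusted p = 0.00118). LINC02885 (chr22:34756676-35002862, minus strand) was higher in the Ctrl insoluble libraries, with 2.51, 2.85 and 2.89 CPM soluble and 7.58, 8.37 and 8.3 CPM insoluble. In NaAsO2 the values were 2.15, 3.09 and 2.11 and 2.63, 2.18 and 2.49 CPM, and the fractions overlapped. The change was -1.57 ± 0.35 (adjusted p = 0.00256), and with exon plus intron counts it was -0.68 (adjusted p = 0.127). LINC01036 (chr1:187070700-187687674, plus strand) changed by -1.16 ± 0.21 (adjusted p = 0.000495), with fraction effects of 0.51 in Ctrl and -0.65 in NaAsO2. LINC01638 changed by -1.03 ± 0.21 (adjusted p = 0.001), at the fold limit, and the call was lost in 21 alternatives, among them DESeq2, RLE size factors and library size alone.

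Across the 157 members the change of the fraction effect rose with GC content, with a Spearman rho of 0.65, beside 0.37 over all tested genes. Genes share libraries and base composition, so this is a description across genes. Without NaAsO2 insoluble replicate 3 the rho of the members was 0.56. The 6 members that rose had 54.6% to 61.7% GC and the 16 that fell 35.72% to 49.13%, with no overlap. In the 36 members with at least 50% GC the median change was 0.50, with 6 called up and 0 down, while 7.24% of all tested genes of that GC were up and 2.55% down. In the 29 members under 40% GC it was -0.87, with 0 up and 6 down, beside 1.36% and 8.92% of all tested genes. Leaving out NaAsO2 insoluble replicate 3 gave 4 up and 0 down in the first class, with a median of 0.31, and 0 up and 2 down in the second, with a median of -0.63. All tested genes then had 4.56% up and 3.15% down in the first class, and 3.25% up and 3.39% down in the second. The insoluble response to NaAsO2 ordered the members alike (rho 0.59), and the response of Combo against NaAsO2 in the insoluble fraction in reverse (rho -0.48, and -0.48 over all tested genes). Base composition moved with these results, and its part in them was not tested.

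**Figure D4:**
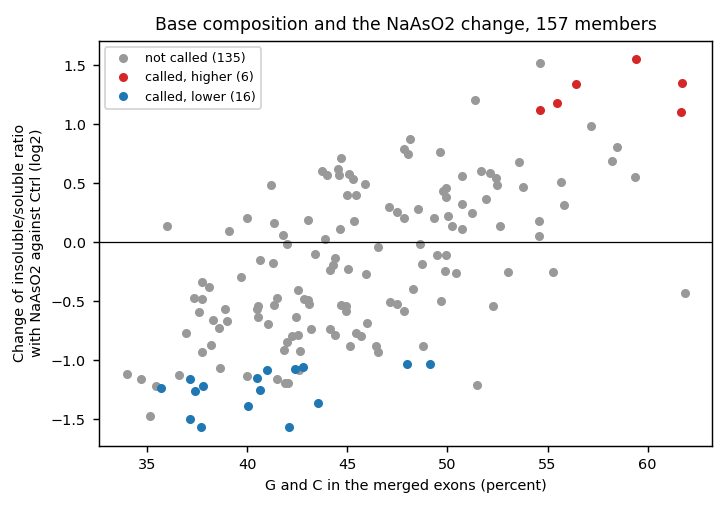
Percent of G and C in the merged exons (horizontal axis) and change of the insoluble-to-soluble log2 ratio with NaAsO2 against Ctrl (vertical axis) for the 157 members, 1 point each. Red points are the 6 members called higher, blue the 16 called lower and grey the 135 not called. The red points lie at 54.6% GC or more and the blue points at 49.13% or less.

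Structure moved with it as well. Of the 20 members with an intron share of at least 90%, 0 were called up and 9 down in the NaAsO2 change of the fraction effect, with a median of -1.08. Of all 263 tested genes with such a share 0% were up and 16.3% down, and their median was -0.78. Once NaAsO2 insoluble replicate 3 was left out, the members had 0 up and 4 down, and all such genes 0.377% up and 9.43% down. Of the 19 members of 1 exon 4 were called up and 0 down, with a median of 0.55, and 2 up and 0 down without that library. All tested genes without an intron entry had 6.34% up and 2.92% down, and 4.96% and 3.12% without that library. Members with an intron share of 50% to under 90% had 0 up and 5 down, beside 2.06% and 4.28% of all tested genes of that share. Without NaAsO2 insoluble replicate 3 these members had 0 up and 1 down, and all such genes 2.31% and 2.12%. Members under 50% had 2 up and 1 down, beside 5.28% and 5.21%, and 2 up and 0 down without that library, beside 5.12% and 3.34%. Of the 20 members with the highest intron shares 1 had at least 50% GC, and of the 19 members of 1 exon 11 did. The part of each in the change was not tested.

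Few members were called with RK-33 alone. In the soluble fraction 0 members were called by edgeR's quasi-likelihood test, 0% against 0.515% of all tested genes. DESeq2 and the likelihood ratio test also called 0. By the quasi-likelihood test 19 members had an unadjusted p under 0.05. An adjusted p under 0.05 was reached by 3, with changes under the fold limit. In the insoluble fraction 16 had an adjusted p under 0.05, and with the fold limit 1 was higher and 0 lower, 0.637% against 1.86%. That member was LINC01943, with 6.28, 6.15 and 6.95 CPM in Ctrl and 13.9, 17.6 and 15.3 CPM in RK-33. The RK-33 libraries all lay above the Ctrl libraries (1.27 ± 0.32, adjusted p = 0.00903).

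Between Combo and NaAsO2 more members rose than fell, as did more genes over the whole table, where 3.11% rose and 0.815% fell among insoluble libraries and 2.41% rose and 0.0283% fell among soluble libraries. In the insoluble fraction 15 members were higher and 3 lower in Combo than in NaAsO2, 11.5% of members against 3.93% of all tested genes. In the soluble fraction 6 were higher and 0 lower, 3.82% against 2.43%. Without NaAsO2 insoluble replicate 3 the insoluble counts were 11 higher and 0 lower, 7.01% against 3.24% of all genes, and without replicate 1 of Combo insoluble 6.37% were called. Without replicate 3 of both groups they were 18 and 0, and with library size alone 16 and 1. Shares of all genes are not given beside these counts or the 6.37%, so they do not show how members stood against the background. In a fit of the NaAsO2 and Combo insoluble groups only, 0 members and 0.11% of all tested genes were called. The folds there were 2.26 for LINC02207 (adjusted p = 0.0804) and 1.87 for LINC01579 (adjusted p = 0.125), and the cause of the loss was not tested. Replicates with the same number in these 2 groups deviated together, with correlations of 0.459, 0.383 and 0.667 over all genes, and a fit with the replicate number as a block again called 18 members. This comparison and that of NaAsO2 with Ctrl share the NaAsO2 libraries.

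**Figure D5:**
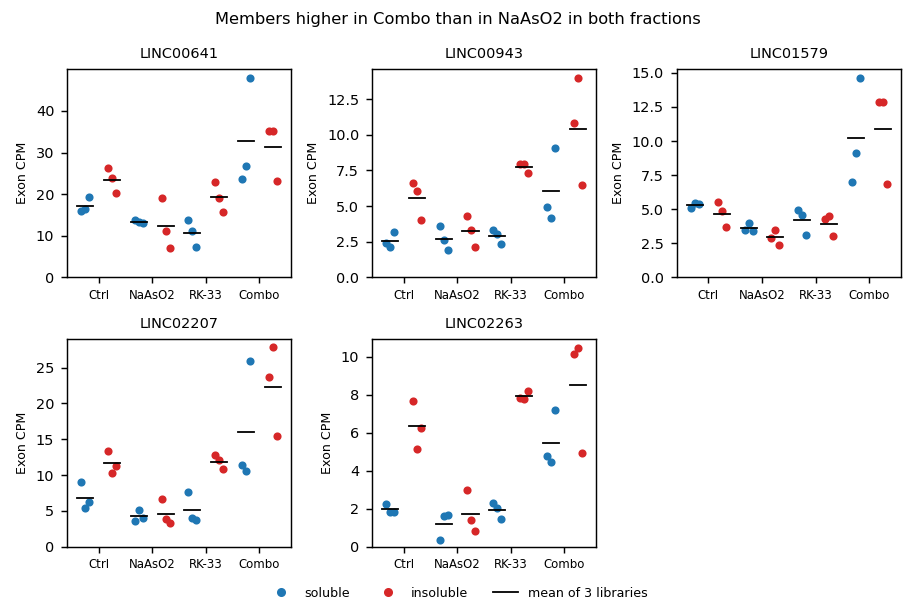
Exon CPM after TMM scaling (vertical axis, from 0) in each library by treatment (horizontal axis) for the 5 members called higher in Combo than in NaAsO2 in both fractions. Points are libraries, blue for soluble and red for insoluble, and lines are means of 3. In each of the 5 members replicate 3 is the highest of the Combo soluble libraries and the lowest of the Combo insoluble libraries.

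LINC00641, LINC00943, LINC01579, LINC02207 and LINC02263 were higher in Combo in both fractions, 83.3% of the 6 soluble and 33.3% of the 15 insoluble calls. This overlap was not determined over all tested genes, so it cannot be called particular to the members. LINC02207 (chr15:93835490-93878822, plus strand) held 3.61, 5.18 and 4.04 CPM in the NaAsO2 soluble and 11.5, 10.6 and 25.9 CPM in the Combo soluble libraries. In the insoluble fraction the values were 6.62, 3.86 and 3.32 and 23.7, 27.8 and 15.5 CPM. Combo exceeded NaAsO2 in every library of both fractions. The log2 fold changes were 1.89 ± 0.35 (adjusted p = 0.00146) and 2.25 ± 0.33 (adjusted p = 0.000177). This gene lies inside LINC01579 (chr15:93718542-94070898, minus strand) on the opposite strand, so the counts of the pair are not independent. LINC01579 rose from 2.92, 3.51 and 2.37 CPM to 12.9, 12.8 and 6.82 CPM in the insoluble fraction (1.86 ± 0.28, adjusted p = 0.000177).

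LINC02263 (chr4:117360596-117412712, plus strand) was low in NaAsO2, with 0.339, 1.6 and 1.65 CPM soluble and 2.99, 1.4 and 0.83 CPM insoluble. In Combo it held 4.79, 4.46 and 7.19 CPM soluble and 10.1, 10.5 and 4.96 CPM insoluble. No Combo library overlapped with NaAsO2 (2.14 ± 0.41 soluble, adjusted p = 0.00226, and 2.21 ± 0.37 insoluble, adjusted p = 0.000534). LINC00641 (chr14:21200079-21206900, minus strand), an lncRNA of 2 merged exons that has been studied in several cancers, rose from 13.9, 13.3 and 13.1 CPM to 23.7, 26.7 and 47.9 CPM in the soluble fraction. Its insoluble values were 19.1, 11.1 and 7.12 and 35.3, 35.2 and 23.2 CPM, again without overlap. The changes were 1.29 ± 0.29 (adjusted p = 0.0088) and 1.3 ± 0.29 (adjusted p = 0.00566). LINC00943 and LINC00944 overlap on opposite strands and rose together in the insoluble fraction, by 1.64 and 1.7. LINC00513, which lies inside an unnamed gene on the opposite strand, rose from 6.4, 4.28 and 3.79 CPM to 15.2, 15.2 and 11.6 CPM (1.52 ± 0.23, adjusted p = 0.000249).

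LINC01970 was called in the soluble fraction, and its insoluble change was 0.62 ± 0.42 (adjusted p = 0.315). Its values were 3.39, 4.39 and 3.03 CPM in NaAsO2 and 10.1, 13.3 and 12.8 CPM in Combo (1.74 ± 0.34, adjusted p = 0.00286), beside 7.17, 4.51 and 4.92 CPM in Ctrl and 9.32, 7.41 and 8.98 CPM in RK-33. The Combo libraries were above all others in the soluble fraction. The 3 members lower in Combo in the insoluble fraction, LINC00235 (-1.0), LINC01521 (-1.01) and LINC02916 (-1.58), had each its highest value in NaAsO2 replicate 3. Without that library their changes were -0.71 (adjusted p = 0.0193), -0.65 (adjusted p = 0.105) and -0.23 (adjusted p = 0.625), and none was called.

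Whether RK-33 changed the fraction effect of stressed cells was tested in the same way. The fraction effect in Combo minus that in NaAsO2 was called for 0 members by edgeR's quasi-likelihood test, 0% against 0.142% of all tested genes, and for 0 by DESeq2 and by the likelihood ratio test, while 23 had an unadjusted p under 0.05. Without replicate 3 of both insoluble groups 2 were up and 1 down, and without NaAsO2 insoluble replicate 1 the share was 4.46%. No share of all genes is given beside either.

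Non-coding RNAs whose place in the cell is well known gave a reference. Of 3 nuclear lncRNAs, KCNQ1OT1 and NEAT1 were higher and MALAT1 was lower in the insoluble fraction in all 4 treatments. Of 11 cytoplasmic lncRNAs 1 was higher and 2 lower in Ctrl, where SNHG5 was the higher. In NaAsO2 1 was again higher and 2 were lower, with NORAD, a lncRNA that binds PUM proteins, as the higher. RK-33 and Combo each had 1 higher and 3 lower, the higher being SNHG5 in RK-33 and NORAD in Combo. Shares of all tested genes called in these comparisons stand above, from 22.5% to 30.7%. In the insoluble response to NaAsO2 1 of the 11 was higher and 5 were lower (14% of all tested genes called), and in Combo against NaAsO2 4 were higher and 0 lower (3.93%).

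Circular RNA was found at 4 LINC genes among 394 entries, and all 4 are members. The sequence across each back-splice junction is shown, 5′ to 3′ in GRCh38, with the end of the circle in lower case and its start in capitals. LINC00632 (chrX:140783175-140784659, plus strand) is the host of CDR1-AS, a circular RNA known to carry many binding sites for miR-7. The others were LINC01239 (chr9:22820738-22821598, plus strand), LINC01695 (chr21:28212240-28228478, minus strand) and LINC02109 (chr5:29193050-29208939, plus strand).
LINC00632: gtctgcaatatccagGGTTTCCGATGGCAC
LINC01239: ctaccacttcttcagACTATGGAAATGATG
LINC01695: cagtgcctagacaagCTGGAGGAAGGGAGG
LINC02109: agcaaagttcctgagGTTCTGGTGGACAAT

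At LINC00632, back-splice counts were 27, 34 and 26 in the Ctrl soluble and 11, 9 and 19 in the Ctrl insoluble libraries. NaAsO2 gave 36, 29 and 45 soluble and 12, 20 and 0 insoluble counts. RK-33 gave 24, 33 and 28 against 16, 10 and 24, and Combo 37, 31 and 27 against 21, 22 and 3. No insoluble library exceeded a soluble library of its treatment, and in RK-33 the lowest soluble and the highest insoluble count were equal. Back-splice counts of all circular RNAs were also lower in the insoluble libraries, with 131 to 517 against 731 to 1473 in the soluble libraries. The LINC00632 counts were not scaled to these totals, and their differences were not tested. The lowest insoluble counts came from replicate 3 of NaAsO2 and of Combo. Its exon counts were called lower in the insoluble fraction only in NaAsO2 (-1.03 ± 0.25, adjusted p = 0.00109). Totals at the others were 35 back-splice counts at LINC01695, 19 at LINC02109 and 18 at LINC01239. Those of LINC02109 came from soluble libraries alone, with 0 in all 12 insoluble libraries. Its exon counts changed by 0.62 from soluble to insoluble in Ctrl, which was not called. Differences at these 3 circles were not tested.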

How the data were processed

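RNA of the soluble and insoluble cytoplasm of U2OS cells was sequenced after rRNA depletion. The authors aligned reads with STAR 2.7.2b (GRCh38.p13, GENCODE 40) and counted them with featureCounts 1.5.3 without strand. The deposited exon and intron counts are raw counts per gene name. Reads over exons of several genes were left out, and introns needed an overlap of 25 bases. Deposited circular RNA counts came from DCC. Each table was fitted here over all 24 libraries and 8 groups with edgeR 4.0.16 (quasi-likelihood test, TMM, R 4.3.3, two-sided), on genes averaging 1 CPM or more, and p-values were adjusted over all tested genes by Benjamini-Hochberg. The fit was tested on simulated data. DESeq2 1.42.0, other scalings, filters, designs and left-out libraries were alternatives. Gene models and sequences came from hg38 and GENCODE 44.

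Named members were the 6 highest per kilobase, the called members with the smallest adjusted p in each comparison (up to 6 per direction between fractions and 4 otherwise), those with the 4 highest and 4 lowest intron shares among measured introns, and those next to the minimum. LINC00662, LINC00641, LINC00943, LINC02802 and the circular RNA hosts were named after their values were seen. The members and lists were chosen with earlier results of these data known. Both fractions of a number come from 1 lysate, yet their deviations from the group means correlated by -0.288 to 0.11. Across treatments, all 3 same-numbered pairs deviated together only in Combo and NaAsO2 insoluble (0.383 to 0.667). A marker gene and a sequence window are not reported here.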

Additional observations from a re-analysis of the deposited data

Results flagged for a closer look

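For 8 members the fraction effect differed between NaAsO2 and Ctrl in a test of the difference itself (edgeR's quasi-likelihood test, adjusted over all tested genes). The log2 ratio of insoluble to soluble rose by 1.34 in LINC01547, 1.12 in LINC00205, 1.10 in LINC02593 and 1.35 in LINC00235. It changed by -1.16 in LINC01036, -1.03 in LINC01638, -1.57 in LINC02315 and -1.57 in LINC02885. These were the 4 members of each direction with the smallest adjusted p among 6 that rose and 16 that fell. Without NaAsO2 insoluble replicate 3, in which RN7SL1 took 5.79% of exon counts, the changes were 1.30, 1.18, 0.98 and 1.09 for the first 4, and -1.16, -0.85, -1.47 and -1.50 for the others, in the same order. The part of that library's composition and of GC content in these differences was not tested.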

How the results depend on the processing

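Of 572 alternative values of the share of members called, 491 lay within 1.5 times the main value, and 67 of 77 named calls held whichever library was left out, while 18 lost the call under another alternative and 58 kept it under all of those. Without a fold limit the shares were 21.7% (Combo against NaAsO2, insoluble), 9.55% (soluble), 58.6% (NaAsO2 against Ctrl, insoluble), 10.2% (soluble), 10.2% (RK-33 against Ctrl, insoluble), 1.91% (soluble) and 22.9% (NaAsO2 change of the fraction effect). Between fractions they were 52.9%, 54.1%, 64.3% and 50.3% for exons and 61.5%, 41.0%, 70.1% and 52.1% for introns, in the order Ctrl, NaAsO2, RK-33, Combo. With only the groups compared, Combo against NaAsO2 gave 0% (insoluble), NaAsO2 against Ctrl 8.92% (insoluble) and 3.18% (soluble), the NaAsO2 change 8.28% and the NaAsO2 introns 8.55%. Exon plus intron counts gave 6.37% for Combo against NaAsO2 (soluble), 1.27% for RK-33 against Ctrl (insoluble), 7.64% for the NaAsO2 change and 38.9% for the Ctrl fractions, and turned LINC01278 to 0.24. Members with at least 2000 counts gave 2.22%, 1.11% and 0%, and members without exon overlap 2.3%, 1.15% and 0%, for Combo against NaAsO2 (soluble), NaAsO2 against Ctrl (soluble) and RK-33 against Ctrl (insoluble). Library size alone gave 3.82% for NaAsO2 against Ctrl (soluble), 1.27% for RK-33 against Ctrl (insoluble), 7.01% for the NaAsO2 change and 19.7% for Ctrl introns. For RK-33 against Ctrl (insoluble), DESeq2 and the fit with the replicate number as a block each gave 1.27%, and the block moved no other share by over 1.5 times. No filter on low counts gave 0.637% for the Combo change. Without replicate 3 of both NaAsO2 and Combo insoluble, shares were 11.5% (NaAsO2 against Ctrl, insoluble), 1.27% (RK-33, insoluble), 1.91% (Combo change), 7.64% (NaAsO2 change) and 26.5% (Combo introns). This pair was chosen after seeing the data. The shares in this section, below as well, are of members alone. Shares of all tested genes can also move with the setting and are not given beside them. The values therefore show how the members' shares moved, and not how they stood against the background.

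Leaving out 1 library at a time gave 6.37% to 15.9% for Combo against NaAsO2 (insoluble), 2.55% to 5.73% (soluble), 11.5% to 34.4% for NaAsO2 against Ctrl (insoluble), 0.637% to 3.82% (soluble), 0.637% to 1.91% for RK-33 against Ctrl (insoluble), 0% to 4.46% for the Combo change and 5.73% to 21.7% for the NaAsO2 change. The values 15.9%, 34.4%, 4.46% and 21.7% came without NaAsO2 insoluble replicate 1, 3.82% without Ctrl soluble replicate 2 and 1.91% without Ctrl insoluble replicate 2. Combo introns ranged from 13.7% to 31.6%, the latter without Combo soluble replicate 3. The cause of these changes was not tested. With 3 libraries per group, small changes of members near 1000 counts may have gone undetected. Other changes had an adjusted p under 0.05 but lay under the fold limit, and so were not called. For NaAsO2 against Ctrl (insoluble), 92 members had such a p by edgeR's quasi-likelihood test and 40 were called.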
